A study of Homo sapiens with 12 samples.

Results

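FOS, FOSL1, FOSL2, JUN, JUNB, JUND, ATF3, EGR1, IER3 and KLF6 are genes of the AP-1 and immediate-early response. Their transcripts were measured at 24 h in 3 human cancer cell lines with and without hypoxia. The 10 genes were chosen by name from the 25369 genes in the deposited tables, with earlier results of these data known. AP-1 (activator protein 1) is a family of transcription factor dimers: a Jun protein pairs with another Jun, with a Fos protein or with an ATF protein, and the pair binds short DNA elements in the promoters and enhancers of genes for growth, invasion and stress. Immediate-early genes are switched on within minutes of serum, growth factors or stress without new protein synthesis, and many of their mRNAs are short-lived. In carcinoma cells FOSL1, FOSL2 and JUN are often expressed steadily, and hypoxia is among the stresses known to act on the family.

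Poly(A)+ RNA was sequenced in 12 libraries, with 2 independent biological replicates in each of 6 groups. RKO (colon carcinoma) and A549 (lung adenocarcinoma) were grown in DMEM and H460 (lung large cell carcinoma) in RPMI, both with fetal bovine serum and antibiotic-antimycotic, and no transgene or knockout is given for any line. Each line was kept in normoxia or placed in 1% O2 for 24 h. No earlier time was sampled here, so a rise within minutes that had ended by 24 h would not be seen. RKO and A549 shared a medium but not a tissue, and A549 and H460 shared a tissue but not a medium. With 1 line for each pairing, line cannot be told apart from tissue in the first case or from medium in the second, nor from either between RKO and H460. Because each library is a bulk culture, fewer cells expressing a gene and less of its RNA per cell cannot be told apart.

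Summed counts per library ranged from 27350424 to 41757584. CA9, a carbonic anhydrase that HIF1A induces, rose in all 3 lines by 4.45, 5.65 and 6.81 on the log2 scale in RKO, A549 and H460. PDK1, a kinase that limits pyruvate entry into mitochondria, also rose in all 3, by 1.60, 1.73 and 1.52. ADM, a vasodilator peptide induced by hypoxia, rose by 1.96 in RKO and 3.28 in H460, and was not called in A549, where its conditions overlapped (log2 0.67, adjusted p = 0.324). The levels below are read counts scaled to a common library size (CPM) with the trimmed mean of M values (TMM). The defining markers fitted the labels only in part. RKO had the intestinal factor CDX2 at 9.29 to 15.5 CPM, but VIL1 was at 0 CPM in every RKO library and KRT20 and LGALS4 stayed at or under 0.0533 CPM. A549 had KRT7 at 2552 CPM or more and NAPSA at 3.26 to 4.89 CPM, with NKX2-1, SFTPB and SFTPC at or under 0.192 CPM. Of 5 epithelial markers, H460 had KRT8, KRT18 and KRT19 at 449 CPM or more, with CDH1 and EPCAM at or under 0.626 CPM. RKO had KRT18 at 88.7 to 183 CPM, KRT8 at 8.08 to 12.9 CPM and EPCAM at 4.54 to 6.13 CPM. In RKO CDH1 was at or under 0.106 CPM and KRT19 at or under 1.33 CPM. A549 had KRT8 and KRT18 at 957 CPM or more, CDH1 at 65.6 to 105 CPM and EPCAM at 13.3 to 19.7 CPM. KRT19 in A549 was at or under 0.814 CPM. Of the lung markers, H460 had KRT7 at 14.4 to 16.8 CPM, NAPSA at or under 0.730 CPM, SFTPB at 0 and SFTPC at or under 0.0293 CPM. NKX2-1 in H460 was at or under 0.0709 CPM in normoxia and at 3.67 and 3.41 CPM in hypoxia. Of 6 markers of blood, endothelial and stromal cells, COL1A1 alone was above 0.146 CPM in any library, and it reached 429 CPM in an A549 hypoxia library. In A549, COL1A1 was at 47.0 to 83.3 CPM in normoxia and 130 to 429 CPM in hypoxia. The study counts COL1A1 among its acute response genes, and any part of other cells in the A549 values was not tested.

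In H460, 9 of the 10 genes rose in hypoxia, from 1.71-fold for FOSL1 to 5.28-fold for IER3, and EGR1 was not called. In RKO, 4 rose (FOSL2, JUND, ATF3 and KLF6) and 2 fell (FOSL1 and EGR1). In A549 none of the 10 was called in either direction by edgeR. Called means an adjusted p under 0.1 and a fold change over 1.5 in edgeR's quasi-likelihood test, with the Benjamini-Hochberg adjustment made over all genes tested in the line. All 10 genes passed the filter on low counts in every line. Among all tested genes, the calls were 18.8% higher and 15.1% lower in RKO, 2.22% higher and 0.456% lower in A549, and 24.6% higher and 27.3% lower in H460. The 9 of 10 higher in H460 were above their background, and the 4 of 10 higher in RKO were above theirs by few genes. In RKO the higher count was 3 with DESeq2, 3 at a fold change over 2 and 5 with scaling by library size alone. The 2 of 10 lower in RKO were near their background, and a count of 0 in A549 is near a background this low. No gene was lower in H460 at an unadjusted p under 0.05 or by DESeq2 either. The 10 genes had a median log2 fold change of 1.23 in H460, 0.30 in A549 and 0.21 in RKO, beside -0.04, -0.01 and 0.01 over all tested genes.

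**Figure D1:**
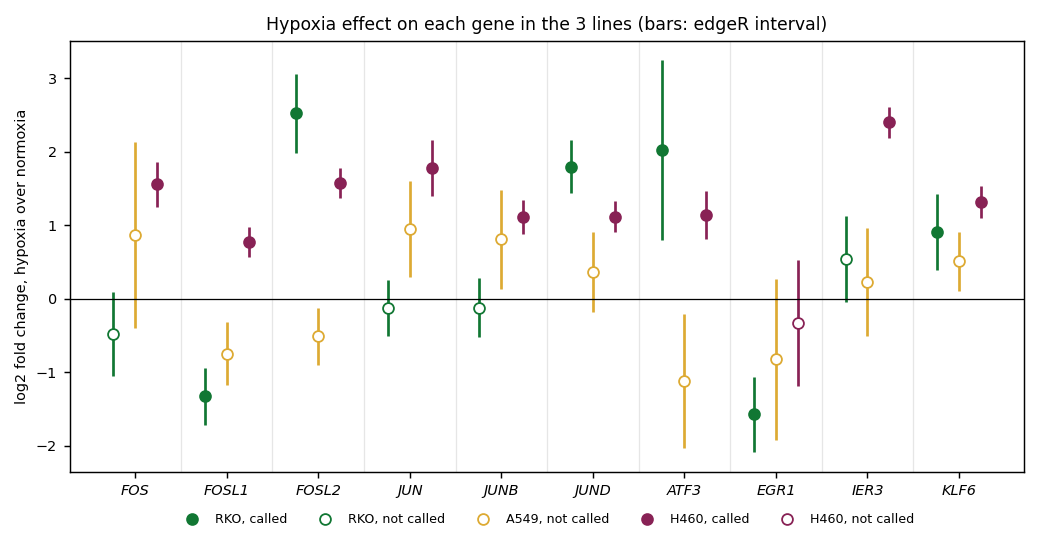
The log2 fold change of hypoxia over normoxia (vertical axis) for each of the 10 genes in RKO, A549 and H460, with 2 libraries per condition. Bars are approximate 95% intervals derived from edgeR's F statistic. Filled points were called and open points were not, with 9 filled points for H460, 6 for RKO and none for A549.

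The promoters were read for elements known to drive immediate-early genes. RefSeq promoter windows on GRCh38.p14, from 250 bases before to 50 bases after each start, were held for 8 of the 10 genes in 9 windows, with 2 windows for ATF3. FOSL1 and IER3 had no entry. Both strands were searched for the AP-1 element TGAGTCA, the CRE TGACGTCA, the Jun-type element TGACATCA, the CArG box of serum response factor, and the hypoxia response cores ACGTG and GCGTG. The Jun-type element lay in 3 of the 9 windows (JUN, ATF3 and KLF6), against 2.61% of all 35116 windows. These 3 windows are shown because they share that element, EGR1 because it carries 2 CArG boxes, and FOSL2 because it alone holds the AP-1 element. Each is written 5' to 3' in the direction of transcription, with matches in capitals. The first 4 cover positions -250 to -1, at chr1:58784048-58784297 (minus strand), chr1:212565157-212565406 (plus strand, the first of the 2 windows), chr10:3785210-3785459 (minus strand) and chr5:138465229-138465478 (plus strand). The last covers 100 bases from position -80 at chr2:28392778-28392877 (plus strand).
JUN: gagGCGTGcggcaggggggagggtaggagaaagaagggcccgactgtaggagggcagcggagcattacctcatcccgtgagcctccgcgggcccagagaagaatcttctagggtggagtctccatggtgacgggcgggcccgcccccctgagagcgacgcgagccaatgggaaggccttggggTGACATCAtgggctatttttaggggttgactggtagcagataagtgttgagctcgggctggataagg
ATF3: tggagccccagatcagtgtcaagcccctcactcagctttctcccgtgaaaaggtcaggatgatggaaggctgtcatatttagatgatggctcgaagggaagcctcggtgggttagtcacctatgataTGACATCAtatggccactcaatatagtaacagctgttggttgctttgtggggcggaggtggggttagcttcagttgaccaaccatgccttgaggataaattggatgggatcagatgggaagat
KLF6: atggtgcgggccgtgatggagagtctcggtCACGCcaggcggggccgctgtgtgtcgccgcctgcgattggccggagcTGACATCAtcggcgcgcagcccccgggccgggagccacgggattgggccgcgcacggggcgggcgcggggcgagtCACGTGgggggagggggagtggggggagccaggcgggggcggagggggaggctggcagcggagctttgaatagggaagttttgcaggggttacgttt
EGR1: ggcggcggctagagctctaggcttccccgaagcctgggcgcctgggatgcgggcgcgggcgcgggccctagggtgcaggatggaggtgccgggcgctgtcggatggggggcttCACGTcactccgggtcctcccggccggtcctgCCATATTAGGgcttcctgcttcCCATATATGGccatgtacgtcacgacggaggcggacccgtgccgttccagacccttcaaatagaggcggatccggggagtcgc
FOSL2: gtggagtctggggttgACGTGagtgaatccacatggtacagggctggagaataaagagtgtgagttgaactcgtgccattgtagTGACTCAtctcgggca

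The Jun-type element began at -67 in JUN, -123 in ATF3 and -172 in KLF6. In EGR1 the CArG boxes began at -105 and -83, and a CArG box was found in 1.29% of all windows. In FOSL2 the AP-1 element, read on the minus strand, began 5 bases into the transcript, and 4.95% of all windows held one. The CRE was in the JUND window at -200, and in 1.85% of all windows. A hypoxia response core, ACGTG or GCGTG, was in 6 of the 9 windows (JUN, FOSL2, EGR1, KLF6, FOS and JUNB), and in 48.4% of all windows, so it is common. The 2 ACGTG matches in KLF6 overlap each other on opposite strands at -97 and -96. A match is only a run of letters, and nothing here measured binding.

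FOS, the founding Fos protein (chr14:75745480-75748937 on GRCh37, plus strand), was at a low level in every line. In H460 it was 6.24 and 6.01 CPM in normoxia and 16.8 and 19.5 CPM in hypoxia, with no overlap, and it rose 2.94-fold (log2 1.56 ± 0.14 SE, n = 2, adjusted p = 1.26e-06). RKO had 6.96 and 6.05 CPM in normoxia against 5.52 and 4.21 CPM in hypoxia, a log2 difference of -0.48 ± 0.26 (adjusted p = 0.171). In A549 the levels were 0.858 and 0.466 CPM in normoxia and 0.623 and 1.86 CPM in hypoxia, on 19 to 64 reads per library, and the groups overlapped (adjusted p = 0.480). Across the 6 groups FOS was highest in H460 hypoxia and lowest in A549, where normoxia and hypoxia were not separated.

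FOSL1 encodes FRA1, a Fos protein without the transactivation domain of FOS, and lies at chr11:65659691-65667997 (minus strand). RKO had 242 and 306 CPM in normoxia and 103 and 125 CPM in hypoxia, and FOSL1 fell there by 1.33 ± 0.18 on the log2 scale (adjusted p = 0.000407). H460 moved the other way, from 27.9 and 28.3 CPM to 48.4 and 48.8 CPM, a rise of 0.77 ± 0.09 on the log2 scale (adjusted p = 1.17e-05). That H460 rise was 0.42 when libraries were scaled by their size alone, which is under the fold minimum. A549 had 151 and 122 CPM in normoxia and 90.3 and 74.5 CPM in hypoxia; the log2 difference of -0.75 ± 0.19 had an adjusted p of 0.112. The order of the groups ran from RKO normoxia down to H460 normoxia, and A549 normoxia and RKO hypoxia were the only neighbours whose replicates overlapped.

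FOSL2 encodes FRA2, the relative of FRA1, and lies at chr2:28615778-28637516 (plus strand). It had the largest rise of the 10 genes in RKO, from 7.01 and 5.92 CPM in normoxia to 47.6 and 30.0 CPM in hypoxia. That is 5.74-fold (log2 2.52 ± 0.24, adjusted p = 9.98e-05), and the RKO hypoxia level came only to the level of H460 normoxia, with which it overlapped. H460 went from 44.9 and 44.0 CPM to 126 and 142 CPM, a rise of 1.58 ± 0.09 on the log2 scale (adjusted p = 4.69e-08). In A549, which had the highest level, FOSL2 was 235 and 262 CPM in normoxia and 181 and 172 CPM in hypoxia. The conditions did not overlap there, but the log2 difference of -0.51 ± 0.17 had an adjusted p of 0.204.

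**Figure D2:**
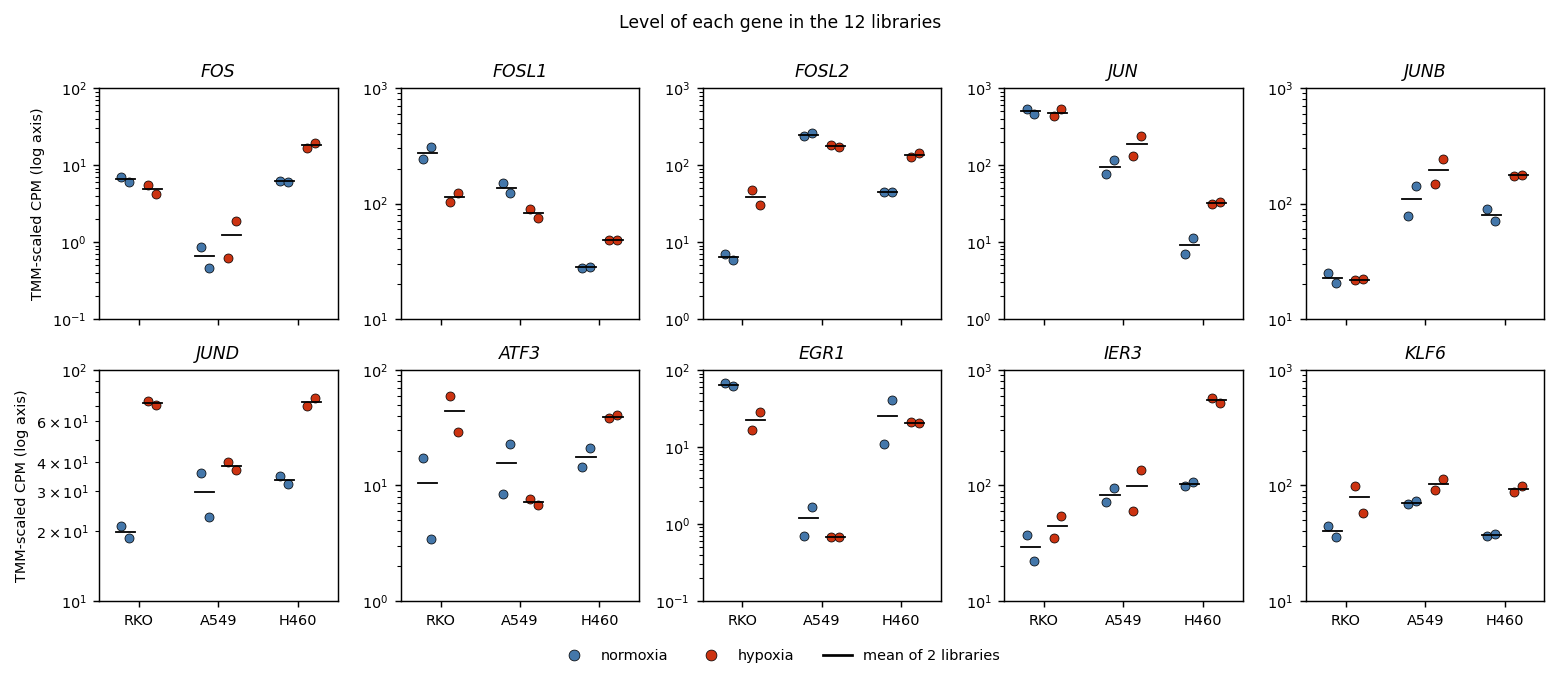
TMM-scaled CPM (vertical, log axis with its own range in each panel) of the 10 genes in the 12 libraries, with normoxia in blue, hypoxia in red and the mean of 2 libraries as a bar. JUN, FOSL2 and EGR1 span the widest range between lines, and the RKO and A549 normoxia replicates of ATF3 lie far apart.

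JUN encodes c-Jun, the main partner of Fos proteins, and lies at chr1:59246462-59249785 (minus strand). H460 had the lowest level, 7.06 and 11.3 CPM in normoxia, and rose to 31.3 and 33.0 CPM in hypoxia (log2 1.78 ± 0.17, adjusted p = 2.33e-06). RKO had the highest level and did not separate by oxygen, with 539 and 464 CPM in normoxia and 428 and 531 CPM in hypoxia (log2 -0.12 ± 0.18, adjusted p = 0.611). In A549 JUN was 76.0 and 115 CPM in normoxia and 133 and 240 CPM in hypoxia, so that the conditions did not overlap. Its log2 difference there was 0.95 ± 0.29, with an adjusted p of 0.167.

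JUNB, a Jun protein that activates transcription more weakly than c-Jun, lies at chr19:12902309-12904125 (plus strand). H460 rose from 88.9 and 71.2 CPM to 174 and 176 CPM (log2 1.12 ± 0.11, adjusted p = 2.02e-06). RKO had 25.1 and 20.5 CPM in normoxia and 21.7 and 22.0 CPM in hypoxia, with both hypoxia values inside the normoxia range. A549 had 78.1 and 142 CPM in normoxia and 149 and 241 CPM in hypoxia (log2 0.81 ± 0.30, adjusted p = 0.235). A549 hypoxia and H460 hypoxia led the order and overlapped, and RKO was lowest in both conditions.

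JUND, the Jun protein usually present in resting cells, lies at chr19:18390503-18392466 (minus strand). In RKO it had 21.1 and 18.7 CPM in normoxia and 73.2 and 70.6 CPM in hypoxia. JUND rose there by 1.79 ± 0.16 on the log2 scale (adjusted p = 7.71e-05). In H460 it went from 34.6 and 32.0 CPM to 69.9 and 75.7 CPM, a rise of 1.11 ± 0.10 (adjusted p = 8.16e-07). RKO hypoxia and H460 hypoxia overlapped at the top of the order, although RKO normoxia was the lowest of the 6 groups. A549 had 35.9 and 23.1 CPM in normoxia and 40.1 and 36.8 CPM in hypoxia (log2 0.37 ± 0.24, adjusted p = 0.482).

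ATF3, a stress-induced ATF protein that pairs with Jun proteins and often represses, lies at chr1:212738675-212794119 (plus strand). In RKO the replicates were far apart, with 17.5 and 3.46 CPM in normoxia and 60.0 and 28.9 CPM in hypoxia, and the conditions did not overlap. ATF3 rose there by 2.02 ± 0.55 on the log2 scale (adjusted p = 0.0151). The size depended on single libraries: it was 3.62 without RKO normoxia replicate 1, 1.28 without RKO normoxia replicate 2 and 1.46 without RKO hypoxia replicate 1. DESeq2 gave RKO an adjusted p of 0.129, so the call was lost with that tool. H460 was tighter, with 14.4 and 21.0 CPM in normoxia and 38.3 and 40.7 CPM in hypoxia (log2 1.14 ± 0.15, adjusted p = 2.84e-05). In A549, ATF3 had 8.43 and 22.7 CPM in normoxia and 7.64 and 6.81 CPM in hypoxia, a log2 difference of -1.12 ± 0.40 (adjusted p = 0.224).

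EGR1, a zinc finger factor known to be induced by serum through CArG boxes, lies at chr5:137801180-137805004 (plus strand). It was the only one of the 10 genes not raised in H460. RKO had 68.1 and 61.1 CPM in normoxia and 16.9 and 28.4 CPM in hypoxia, and EGR1 fell there by 1.57 ± 0.23 on the log2 scale (adjusted p = 0.000690). The H460 normoxia replicates were 11.0 and 40.3 CPM, on either side of the 21.1 and 20.4 CPM in hypoxia (log2 -0.33 ± 0.39, adjusted p = 0.460). Of the 6 groups RKO normoxia was highest, and H460 normoxia, RKO hypoxia and H460 hypoxia overlapped. The direction in H460 depended on which normoxia library was kept. With 1 normoxia library left, the log2 difference was -1.01 without H460 normoxia replicate 1 and 0.87 without replicate 2. A549 had at most 1.67 CPM, on 23 to 68 reads per library, and its conditions were not called different (adjusted p = 0.438).

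IER3, an early response gene that modulates cell survival, rose more than any other of the 10 in H460. It went from 98.2 and 106 CPM in normoxia to 570 and 523 CPM in hypoxia, 5.28-fold (log2 2.40 ± 0.10, adjusted p = 2.85e-09). RKO had 37.1 and 22.0 CPM in normoxia and 34.9 and 54.7 CPM in hypoxia, which overlapped (log2 0.54 ± 0.27, adjusted p = 0.133). That difference was 0.97 without RKO normoxia replicate 1 and 0.88 without RKO hypoxia replicate 1. Both sizes were over the fold minimum, in fits with 1 library left in a group. A549 had 71.4 and 95.0 CPM in normoxia and 60.4 and 137 CPM in hypoxia (log2 0.23 ± 0.33, adjusted p = 0.768). The deposited row of IER3 joins copies on alternate haplotypes of chromosome 6, so its position and its level per length are not given, and reads that matched several copies may be missing from its counts.

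KLF6, a zinc finger factor of the Krüppel-like family, lies at chr10:3818187-3827473 (minus strand). H460 rose from 36.4 and 38.2 CPM to 87.4 and 99.9 CPM (log2 1.31 ± 0.10, adjusted p = 2.71e-07). RKO had 44.5 and 35.9 CPM in normoxia and 99.7 and 57.8 CPM in hypoxia, a rise of 0.91 ± 0.23 (adjusted p = 0.0110). Without RKO hypoxia replicate 1 the RKO difference was 0.52, under the fold minimum. A549 had 69.5 and 73.0 CPM in normoxia and 91.2 and 114 CPM in hypoxia (log2 0.51 ± 0.18, adjusted p = 0.214). The 3 hypoxia groups were the 3 highest of the 6 and overlapped with their neighbours, RKO hypoxia also with A549 normoxia.

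In A549 none of the 10 was called, although the conditions of several genes did not overlap. At an unadjusted p under 0.05, 6 of the 10 passed, 3 with a positive difference (JUN, JUNB and KLF6) and 3 with a negative difference (FOSL1, FOSL2 and ATF3). DESeq2 called JUN higher and FOSL1 and ATF3 lower, and limma on log2(RPKM + 1) called none. Without A549 hypoxia replicate 1, the log2 difference was 1.46 for FOS, 1.30 for JUN, 1.10 for JUNB, 0.69 for IER3 and 0.65 for KLF6. In the same fit it was -0.91 for FOSL1 and -1.22 for ATF3. Without A549 normoxia replicate 2 the log2 difference was 1.27 for JUN, 1.30 for JUNB and -0.90 for FOSL1. Without A549 normoxia replicate 1 it was -1.66 for ATF3. All of these sizes were over the fold minimum, in fits with 1 library left in a group. The A549 hypoxia libraries differed from each other by 2.71-fold in FOS, 2.27-fold in IER3 and 1.80-fold in JUN, and replicate 2 was the higher one in all 3 genes.

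Whether hypoxia acted differently between lines was tested by the interaction of line and oxygen in 1 fit of all 12 libraries. It passed for 8 of the 10 genes (all but EGR1, adjusted p = 0.265, and KLF6, adjusted p = 0.109), beside 48.8% of all 15595 genes tested. Between pairs of lines, 3 genes differed for RKO against A549 (background 14.6%), 7 for RKO against H460 (background 37.6%) and 6 for A549 against H460 (background 36%). FOSL1 had the clearest contrast between RKO and H460, with an effect lower in RKO by 2.06 ± 0.23 on the log2 scale (adjusted p = 5.08e-05). FOSL2 separated A549 from both other lines, with an effect 3.08 ± 0.26 higher in RKO than in A549 (adjusted p = 3.41e-05) and 2.09 ± 0.26 lower in A549 than in H460 (adjusted p = 0.000127). Calls between pairs of lines depended on single libraries, and each fit without a library left 1 library in its group. The ATF3 difference between RKO and A549 was 3.20 ± 0.80. It ran from 2.31 (without A549 normoxia replicate 2) to 4.79 (without RKO normoxia replicate 1), and was not called without RKO hypoxia replicate 1. Between A549 and H460, ATF3 was not called without A549 normoxia replicate 2 (-1.38) or H460 normoxia replicate 1. Between RKO and H460 it was called without RKO normoxia replicate 1 (2.54). The KLF6 call between A549 and H460 was lost without A549 normoxia replicate 2, A549 hypoxia replicate 1, either H460 normoxia library or H460 hypoxia replicate 2, at -0.65 to -0.87. JUND lost its call between RKO and H460 without RKO normoxia replicate 2, H460 normoxia replicate 1 or H460 hypoxia replicate 1, at 0.65 to 0.67. Between A549 and H460 the JUND call was lost without A549 normoxia replicate 1, at -0.39, which is under the fold minimum. That call was also lost without H460 normoxia replicate 2 or H460 hypoxia replicate 2 (both -0.72). EGR1, called between no pair with all libraries, was called for RKO against H460 (-2.44) and A549 against H460 (-1.76) without H460 normoxia replicate 2. IER3 had a lower effect in RKO and in A549 than in H460, by 1.82 ± 0.46 (adjusted p = 0.00874) and 2.17 ± 0.46 (adjusted p = 0.00360), the latter -2.88 without A549 hypoxia replicate 2. FOS, JUN and JUNB had effects that differed between RKO and H460 but not, by this test, between A549 and H460, where the differences were -0.70 ± 0.56, -0.84 ± 0.39 and -0.31 ± 0.35. Without A549 hypoxia replicate 2 the A549 and H460 effects differed for FOS (-1.66) and JUN (-1.33). For JUN they also differed without A549 normoxia replicate 1 (-1.11) or H460 normoxia replicate 2 (-1.25). The RKO and A549 effects differed without A549 hypoxia replicate 1 for FOS (-1.90), JUN (-1.39) and JUNB (-1.19), without A549 normoxia replicate 2 for JUN (-1.36) and JUNB (-1.38), and without A549 normoxia replicate 1 for FOS (-1.79). As an average over the 3 lines, 8 genes were called higher (background 14.8%) and EGR1 was called lower at -0.88 ± 0.30 (background 11.5%). The average calls of FOS, JUNB, ATF3 and EGR1 were lost when single libraries were left out, ATF3 with 7 of the 12 libraries, and the lowest average was 0.35 for FOS and 0.47 for ATF3. EGR1 had -0.47 without H460 normoxia replicate 2, and JUNB had 0.50 without A549 hypoxia replicate 2. FOSL1, which moved in opposite directions in RKO and H460, had an average of -0.40 ± 0.09 and missed the fold minimum.

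The lines already differed in these genes in normoxia, as they did in most genes. Of the 10, 8 were called for RKO against A549 (background 60.2%), 7 for RKO against H460 (background 61.9%) and 6 for A549 against H460 (background 52.1%). EGR1 was 54.8-fold higher in RKO than in A549 (log2 5.78 ± 0.55, adjusted p = 3.66e-07) and 21.8-fold lower in A549 than in H460 (log2 -4.45 ± 0.53, adjusted p = 6.03e-06). These sizes moved with single libraries: the fold of RKO over A549 was 92.8 without A549 normoxia replicate 2, and the fold between A549 and H460 was 37.0 without that library, 34.3 without H460 normoxia replicate 1 and 9.34 without H460 normoxia replicate 2. Between RKO and H460 EGR1 was 2.51-fold higher in RKO, 1.60-fold without H460 normoxia replicate 1 (not called) and 5.84-fold without replicate 2. JUN was 54.5-fold higher in RKO than in H460 (log2 5.77 ± 0.33, adjusted p = 1.14e-09). FOSL2 ran the other way and was 38.4-fold lower in RKO than in A549 (log2 -5.26 ± 0.22, adjusted p = 3.24e-11). FOS was 9.76-fold higher in RKO than in A549, and between RKO and H460 its difference of 0.09 ± 0.34 was within the error. ATF3 was called between no pair of lines in normoxia, where its intervals were wide: the difference of RKO from A549 was -0.58, with a 95% interval from -1.77 to 0.62. Without RKO normoxia replicate 1 ATF3 was called lower in RKO than in A549 (-2.18) and H460 (-2.37), and without A549 normoxia replicate 1 lower in RKO than in A549 (-1.12). JUND was called lower in RKO than in A549 without RKO normoxia replicate 1 (-0.67) or A549 normoxia replicate 2 (-0.86), and JUNB higher in A549 than in H460 without A549 normoxia replicate 1 (0.82). With all libraries, the normoxia differences of JUND, ATF3 and KLF6 between lines were at most 1.91-fold.

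Per kilobase of transcript the make-up of the families could be compared within a library, using the deposited RPKM, which scale each count by gene length and library total. The Jun family (JUN, JUNB and JUND) was mostly JUN in RKO and mostly JUNB in A549 and H460. In RKO normoxia JUN held 86.9% and 87.0% of Jun RPKM, and in RKO hypoxia 72.3% and 76.9%. JUND made up the difference, with 5.75% and 5.94% in normoxia and 20.9% and 17.3% in hypoxia. In H460 the JUNB share was 71.2% and 66.6% in normoxia and 68.1% and 66.7% in hypoxia, while the summed level of the 3 genes went from 66.4 ± 6.3 to 116 ± 6.8 RPKM (SD, n = 2). A549 had a JUNB share of 51.1% to 62.7% over its 4 libraries, and its JUND share varied from 9.46% to 21.7% between its 2 normoxia libraries.

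The Fos family (FOS, FOSB, FOSL1 and FOSL2) was nearly all FOSL1 in RKO normoxia, at 93.0% and 95.2%. In RKO hypoxia FOSL1 held 75.7% and 83.9%, FOSL2 went from 1.13% and 0.771% to 14.6% and 8.46%, and the summed level went from 186 ± 32 to 92.4 ± 10.5 RPKM. H460 started with more even shares, FOSL1 at 53.8% and 54.9% and FOSL2 at 36.2% and 35.7%, and in hypoxia FOSL2 (44.3% and 46.5%) came above FOSL1 (40.8% and 38.1%). The summed Fos level in H460 went from 32.3 ± 0.3 to 59.6 ± 5.5 RPKM, opposite to RKO. In A549, FOS and FOSB were each under 1% of the family in every library. These shares are a description of mRNA and were not tested.

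**Figure D3:**
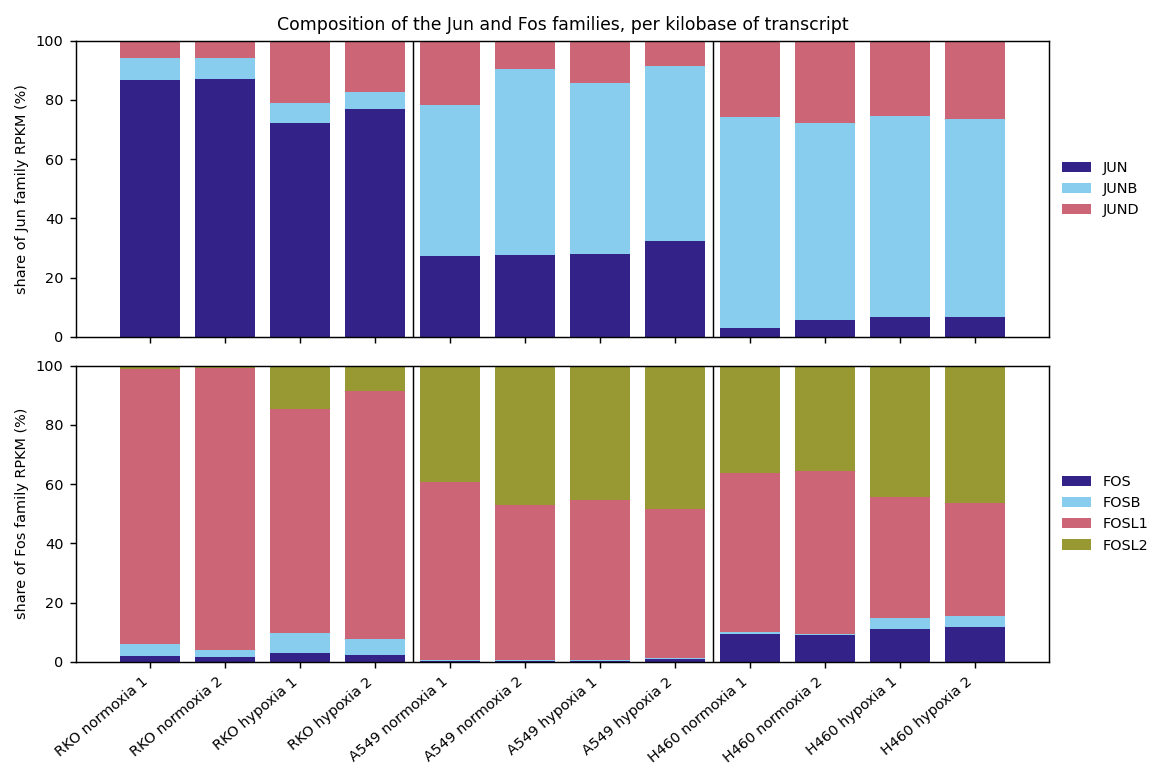
Share of each gene in the summed RPKM of the Jun family (top) and the Fos family (bottom), in percent, for each of the 12 libraries. JUN and FOSL1 dominate the RKO bars, JUNB the A549 and H460 Jun bars, and the JUND and FOSL2 segments of RKO are wider in hypoxia than in normoxia.

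Some of the 10 genes varied between replicate cultures far more than the median gene. The RKO normoxia replicates of ATF3 differed by 4.93-fold, more than 99.97% of the genes tested, and the H460 normoxia replicates of EGR1 differed by 3.65-fold, more than 99.94%. The median gene differed between replicates by 1.09-fold to 1.19-fold, depending on the group. FOS in A549 hypoxia (2.71-fold) and ATF3 in A549 normoxia (2.67-fold) were at percentiles of 99.17 and 99.06. FOSL1 in H460 was the opposite, with replicates 1.02-fold apart in normoxia and 1.01-fold apart in hypoxia.

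The other genes of the pathway were read as 4 lists, which were chosen with earlier results of these data known. Their counts stand beside the same backgrounds of all tested genes. These were 18.8% higher and 15.1% lower for RKO, 2.22% higher and 0.456% lower for A549, and 24.6% higher and 27.3% lower for H460. Among other AP-1 dimer partners, RKO had 4 genes higher and 1 lower of 9 tested, A549 1 higher and none lower of 11, and H460 7 higher and 2 lower of 11. The median log2 fold change of the list was 0.53, 0.24 and 1.23 in the 3 lines. MAFF, a small MAF protein, rose in RKO from 38.9 and 28.9 CPM to 88.1 and 60.9 CPM (log2 1.07) and in H460 from 6.77 and 8.24 CPM to 59.5 and 66.5 CPM (log2 3.05). MAF, a large MAF protein, rose in H460 from 1.03 and 1.03 CPM to 27.6 and 20.7 CPM (log2 4.53) and in A549 from 0.214 and 0.662 CPM to 1.92 and 5.91 CPM (log2 3.13, adjusted p = 0.0604). BATF3, which pairs with Jun proteins in place of Fos, fell in RKO by 1.31 and in H460 by 2.78 on the log2 scale. JDP2, a repressor that pairs with Jun, rose in RKO by 1.31 and fell in H460 by 0.92. ATF7 rose in both, by 0.71 and 0.67. FOSB, outside the naming rule and named after its values were seen, rose by 3.98 on the log2 scale in H460 and was not called in RKO or A549.

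The list of other immediate-early genes had 9 higher and 2 lower of 19 tested in RKO, none higher and 1 lower of 17 in A549, and 10 higher and 1 lower of 17 in H460. In A549, 2 genes were higher at an unadjusted p under 0.05, and DESeq2 called 2 higher and 2 lower. The 9 of 19 higher in RKO and 10 of 17 higher in H460 were above background, and the 2 of 19 lower in RKO and 1 of 17 lower in H460 were under it. In H460 limma on log2(RPKM + 1) called 8 higher and 3 lower. DUSP1, a phosphatase that switches off MAP kinases, rose in RKO from 35.4 and 19.5 CPM to 109 and 58.3 CPM (log2 1.54) and in H460 from 147 and 160 CPM to 473 and 475 CPM (log2 1.61). The nuclear receptor NR4A2 rose in H460 from 56.3 and 53.6 CPM to 249 and 226 CPM (log2 2.10) and in RKO by 0.71 (adjusted p = 0.0882). ZFP36, which destabilises mRNAs with AU-rich elements, rose by 1.77 in H460. MYC fell in RKO by 0.87, from 526 and 458 CPM to 275 and 285 CPM. IER2 fell in RKO by 1.13, while in H460 its difference of 0.54 was under the fold minimum. CTGF, a matricellular growth factor, rose in RKO by 1.13 and fell in H460 by 0.74.

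Of the 13 upstream factors and kinases, RKO had 1 higher and none lower, which is under background. A549 had none in either direction, near its background, and H460 had 4 higher and 1 lower, near and under background, with 3 lower by limma. At an unadjusted p under 0.05, 1 was lower in RKO and 1 was higher in A549, and DESeq2 called none of these. In H460 the ternary complex factors ELK1 (1.14) and ELK4 (1.06) and the kinases MAPK3 (1.03) and MAPK7 (1.37) rose on the log2 scale, and MAPK9, a Jun kinase, fell by 0.68. CREB1, which binds the CRE, was the gene called in RKO, at 0.82. Among commonly described AP-1 targets, RKO had 1 higher and 1 lower of 9, A549 4 higher and none lower of 10, and H460 8 higher and 2 lower of 10. In A549 DESeq2 called 3 targets higher and none lower, limma on log2(RPKM + 1) called 1 higher and none lower, and 1 was lower at an unadjusted p under 0.05. In H460 limma called 5 targets higher and 2 lower.

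PLAUR, the urokinase receptor, rose by 1.12 in A549 and 2.32 in H460. CCND1, a G1 cyclin, fell in RKO from 199.9 and 175 CPM to 94.5 and 98.2 CPM (log2 -1.02) and in H460 from 129 and 117 CPM to 27.4 and 30.6 CPM (log2 -2.09). The urokinase gene PLAU fell in H460 by 1.21. MMP1, the interstitial collagenase, was called in RKO (2.68) and H460 (0.86) at levels of at most 1.41 CPM, and MMP9 was called in A549 alone (1.52, at most 4.97 CPM) and was at or under 0.0293 CPM in the other lines, where it was not tested.

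**Figure D4:**
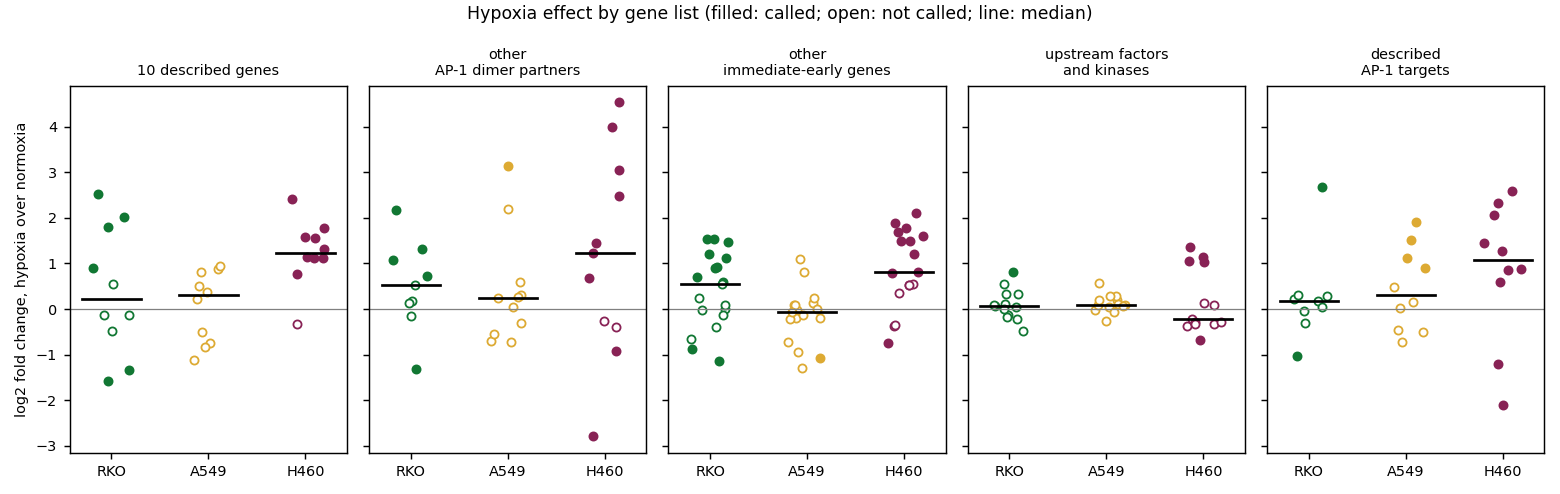
The log2 fold change of hypoxia over normoxia (vertical axis) for the 10 genes and the 4 pathway lists in each line, with filled points called, open points not called and a line at the median. The H460 points sit mostly above 0 in every panel but the upstream factors and kinases, where the median is -0.22.

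The gene whose pattern over the 6 group means was nearest to each of the 10 was found by the Euclidean distance between centred log2 CPM, among 12355 genes with a mean of at least 100 counts. KLF6 had the closest neighbour, GRN, at 0.25 against a median distance of 2.11, followed by JUND with TTLL3 at 0.31 and JUNB with TTC30A at 0.36. FOSL2 had the most distant one, POLD4 at 1.20, and ATF3 had SERTAD2 at 1.01. The others were FOS with SLC6A8 (0.64), IER3 with FAM41C (0.75), JUN with SLC4A8 (0.76), FOSL1 with MMACHC (0.78) and EGR1 with HIST1H2BH (0.88). With 6 points for each gene this is a description of likeness only.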

How the data were processed

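The 12 poly(A)+ libraries, from 3 lines in normoxia or hypoxia, were analysed from the deposited tables. Per the submitters' processing notes and the study's methods, strand-specific reads were aligned to GRCh37/hg19 with TopHat2 2.0.13, filtered for mapping quality and counted per gene with HTSeq 0.6.1. The authors deposited these as raw counts for 25369 genes. The authors also deposited RPKM values, which are counts scaled by gene length and by library total, without TMM scaling. Read processing was not repeated. Because reads with several equally good places were lost upstream, genes with close copies (such as IER3) carry that limit. CPM is not scaled by gene length, so folds and tests use it only within a gene. Levels of different genes set side by side in CPM are rough.

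Groups came from the sample titles. The effect within a line was tested by edgeR's quasi-likelihood method (version 4.0.16, R 4.3.3) after TMM scaling, using only that line's 4 libraries and the genes above 0.5 CPM in at least 2 of them. A gene was called at a Benjamini-Hochberg adjusted p under 0.1, over all genes tested, and a fold change over 1.5, the thresholds in the study's methods. All adjusted p values are edgeR's unless another tool is named. Lines were compared, and averaged, in 1 joint edgeR fit of all 12 libraries, with the interaction called on adjusted p alone. Differences between pairs of lines were also counted on adjusted p alone, and with a library left out they needed the fold minimum too. Alternatives were DESeq2 1.42.0, limma 3.58.1 on log2(RPKM + 1) and log2(RPKM + 0.1), other scalings, filters and fold minimums, a joint fit, a replicate block and leaving out each library. Scripts were tested on simulated data.

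The 10 genes and the 4 lists were chosen with earlier results of these data known. All 10 genes are named. From each list the up to 3 highest and 3 lowest genes by average log2 fold change are named, among those called in at least 1 line. The values of 2 genes that this rule selects are not reported here. With 2 replicates per group, p-values measure the spread between these cultures. Leaving out a library left 1 library in its group. Calls from such fits take their spread from the other libraries and do not measure the spread within that group. Promoter windows are RefSeq sequences on GRCh38.p14, used for letters only, while gene positions are the deposited GRCh37 ones.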

Additional observations from a re-analysis of the deposited data

Results flagged for a closer look

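For these genes the effect of hypoxia differed between 2 lines by a test of the difference itself. The test was the contrast of that pair of lines in edgeR's joint fit of 12 libraries. KLF6 is listed by its pair, although the interaction over all lines was not called for it (adjusted p = 0.109). Values are differences of log2 fold changes, the first line minus the second, each on 2 libraries per group. For RKO against A549 the effect was higher in RKO for FOSL2 (3.08, adjusted p = 3.41e-05), JUND (1.47, adjusted p = 0.00436) and ATF3 (3.20, adjusted p = 0.0281). For RKO against H460 it was higher in RKO for FOSL2 (0.99, adjusted p = 0.0113) and JUND (0.73, adjusted p = 0.0442). It was lower in RKO than in H460 for FOS (-1.99, adjusted p = 0.00733), FOSL1 (-2.06, adjusted p = 5.08e-05), JUN (-1.87, adjusted p = 0.00289), JUNB (-1.19, adjusted p = 0.0226) and IER3 (-1.82, adjusted p = 0.00874). For A549 against H460 it was lower in A549 for FOSL1 (-1.52, adjusted p = 0.000456), FOSL2 (-2.09, adjusted p = 0.000127), JUND (-0.75, adjusted p = 0.0421), ATF3 (-2.26, adjusted p = 0.0479), IER3 (-2.17, adjusted p = 0.00360) and KLF6 (-0.80, adjusted p = 0.0604). Leaving out single libraries ended the calls of ATF3 against A549 and of ATF3, JUND and KLF6 in A549 against H460, and of JUND in RKO against H460. The comparisons share libraries, since each line enters 2 of the 3 pairs.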

How the results depend on the processing

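Counts of genes called higher and lower in RKO and higher in H460, called by the interaction and called between lines in normoxia stayed within 1.5 times of the reported counts under every alternative that was run. In A549, where none was called, 1 gene was higher and 1 lower with no filter on low counts, 1 and 2 with DESeq2, 2 and 1 in the joint fit, and 2 and 2 with the replicate block. Leaving out each library gave 0 to 5 higher and 0 to 2 lower in A549, and 0 to 1 lower in H460. For the average over lines, 5 genes were higher with library size only, 5 with limma on log2(RPKM + 1), 5 with limma on log2(RPKM + 0.1) and 3 with a fold change over 2. The 1 gene lower on average became 0 with a fold change over 2, 2 with no fold minimum and 0 to 1 when leaving out each library. Directions of single genes turned only when a library was left out: JUN in RKO ranged from -0.28 to 0.073, JUNB in RKO from -0.26 to 0.034, FOS in A549 from -0.094 to 1.46, IER3 in A549 from -0.47 to 0.69 and EGR1 in H460 from -1.01 to 0.87. The cause was not tested. With no TMM factors, the log2 fold changes in H460 moved by a median of -0.35, and 8 of the 10 genes were still called higher there.

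Same-numbered replicates deviated together with a correlation of 0.27 in RKO, 0.31 in A549 and 0.09 in H460. The labels do not say whether same-numbered replicates were handled together, so pairing is not known. The main fits treated them as unpaired. Beside the A549 counts, the replicate block moved no count by more than 1.5 times. Values of FOS and EGR1 in A549 rest on at most 68 reads per library. Leaving each of the 12 libraries out of the joint fit in turn was chosen after seeing the data, and its values stand beside the differences between lines.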
